A study of Homo sapiens with 6 samples.

Results

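The 77 genes described here specify proteins of the cytosolic ribosome, and were measured in MDA-MB-231, a breast cancer cell line that lacks hormone receptors and HER2 amplification. They were chosen by name from the 25706 genes of the deposited table. A gene was taken where its symbol was RPL or RPS with a number and at most the letter A or X, or RPLP0, RPLP1, RPLP2 or RPSA. Of the 77 genes, 31 belong to the small (40S) subunit and 46 to the large (60S) subunit, and each symbol stood on 1 row. FAU and RACK1 specify ribosomal proteins under other names and are described apart. Polyadenylated RNA was sequenced in 6 libraries, 3 from cells labelled as overexpressing tsRNA-Gly-5-0006 and 3 from controls of the same line. This small RNA is a fragment of a tRNA for glycine. The labels give neither the time of harvest, nor how the small RNA was delivered, nor what the control cells carry. They also do not say whether the replicates were separate cultures; p-values then measure only the spread between these samples, which may be technical. The comparison asks whether the mRNA of any ribosomal protein differs in level between the overexpressing and the control cells.

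A ribosome holds a single copy of nearly every one of these proteins, so a growing cell makes them in equal numbers. The proteins of the small subunit hold the mRNA and the decoding site, and those of the large subunit surround the site of peptide bond formation and the tunnel through which the new chain leaves. Their mRNAs typically begin with a C followed by a run of pyrimidines, the 5′ terminal oligopyrimidine (TOP) tract, through which mTOR and the RNA-binding protein LARP1 control their translation. Free ribosomal proteins are degraded or bound by chaperones, and a few of them, with 5S ribosomal RNA, bind the p53 ligase MDM2. Human genomes also carry many processed copies of these genes.

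The deposited counts summed to between 54371226 and 74586916 per library. They were taken to derive from a coverage estimate and not from tallies of fragments, so no counting intervals are given. Levels are FPKM, fragments scaled to transcript length and to the mapped fragments of the library, as the authors deposited them. Of the markers of the line, VIM was present at 365 to 460 FPKM, and CD44, AXL and CAV1 at 18.9 FPKM or more in each library. EGFR was low, at 0.580 to 0.849 FPKM, and PGR and CDH1 were at or near 0. EPCAM was at 0.0898 to 0.283 FPKM, and ERBB2, the gene of HER2, at 5.12 to 6.39 FPKM. KRT19, a luminal keratin, was at 1894.7 to 2505.5 FPKM. Overexpression 1 stood apart from the other 5 libraries. CPM are counts scaled to the library total, and for this comparison TMM scaling factors were applied as well. In the 10 pairs of libraries without overexpression 1, the SD over tested genes of the difference in log2 CPM was 0.652 to 0.763. It was 0.899 to 0.986 in the 5 pairs that included overexpression 1. Its summed FPKM over 11 fibroblast markers was 14.6, against 1.33 to 1.88 in the others. All 11 were highest there, and its COL3A1, DCN and FAP, at 1.80, 0.0496 and 0.0911 FPKM, were listed at 0 in the others. Values without that library are given beside the comparisons.

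RefSeq start sites were available for 62 of the 77 genes (GRCh38.p14). In 46 of these, 74.2%, the first base was a C and began a run of at least 5 pyrimidines, against 5.14% of 27305 genes with a window. The sequences below show the start sites of 4 of the genes with the highest levels, of 4 with the lowest and of 3 that stood out in overexpression 1. Each runs from 30 bases before the start to 20 bases after it, and capitals mark the run of pyrimidines that begins at the start site.
RPL35 (chr9:124861938-124861987, - strand): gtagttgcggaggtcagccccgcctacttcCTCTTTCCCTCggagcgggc
RPS12 (chr6:132814539-132814588, + strand): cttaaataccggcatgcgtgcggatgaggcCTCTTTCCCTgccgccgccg
RPLP0 (chr12:120201092-120201141, - strand): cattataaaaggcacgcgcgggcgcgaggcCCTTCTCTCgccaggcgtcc
RPL7A (chr9:133348188-133348237, + strand): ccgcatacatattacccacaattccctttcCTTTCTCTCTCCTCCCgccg
RPS24 (chr10:78033833-78033882, + strand): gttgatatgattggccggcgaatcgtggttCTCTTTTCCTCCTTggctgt
RPS7 (chr2:3575230-3575279, + strand): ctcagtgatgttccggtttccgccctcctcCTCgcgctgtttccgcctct
RPS29 (chr14:49598691-49598740, - strand): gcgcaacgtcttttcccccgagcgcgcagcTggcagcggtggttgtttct
RPL36A (chrX:101390981-101391030, + strand): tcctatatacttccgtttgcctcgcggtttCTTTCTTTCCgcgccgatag
RPL26 (chr17:8383174-8383223, - strand): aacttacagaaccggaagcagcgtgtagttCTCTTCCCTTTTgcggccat
RPS3A (chr4:151099598-151099647, + strand): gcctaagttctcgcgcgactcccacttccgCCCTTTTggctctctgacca
RPL34 (chr4:108620546-108620595, + strand): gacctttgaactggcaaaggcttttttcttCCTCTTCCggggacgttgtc
Among the highly expressed genes, RPL35, RPS12, RPLP0 and RPL7A had runs of 11, 10, 9 and 16 pyrimidines. RPS24, the gene with the lowest level, had a run of 14, whereas RPS7 had a run of 3 and the annotated start of RPS29 was a T followed by a purine. The annotated first base decides this count, and start sites were not measured in these libraries. In the windows of 250 bases before to 50 after the start, the core of the GABPA site (CCGGAAG, both strands) was found in 35.5% of the 62 genes and in 12.2% of all genes. The YY1 core (AAGATGG, both strands) was found in 12.9% and 7.11%, and TATAAA, on both strands as well, in 8.07% and 13.99%. Matches of the 3 searches may overlap. The 46 genes with the tract had a median level of 204.7 FPKM and the 16 without it 174.1 FPKM.

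The mean FPKM of these genes spanned 1303-fold. Their mean deposited counts, which are not scaled to length, spanned 395.6-fold. RPS2 (chr16:1962058-1964826, - strand, hg38, as deposited), a small-subunit protein at the entry of the mRNA channel, had the highest mean over the 6 libraries, 3090.1 FPKM, and RPS24 (chr10:78033760-78040716, + strand) the lowest, 2.37 FPKM. The median was 196.9 FPKM, and the middle of the distribution ran from 50.7 to 564 FPKM between the quartiles. RPL8 and RPL35, a core protein of the peptidyl transferase region and a protein near the exit of the tunnel, followed at 2822 and 2810 FPKM. RPS12, RPLP0 and RPL7A were the other genes at 1000 FPKM or more, at 1458, 1337 and 1181 FPKM. The 3 highest genes held 26.9% of the FPKM of all 77, and the 10 highest held 50.7%.

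The subunits overlapped in level. The median was 205.7 FPKM for the 31 small-subunit genes and 170.9 FPKM for the 46 large-subunit genes. Large-subunit genes ran from 15.95 FPKM (RPL23, which lies at the face that meets the small subunit) to 2822 FPKM. Only the small subunit had genes under 10 FPKM, namely RPS24, RPS7 and RPS29. The 33 genes whose proteins occur in all domains of life had a median of 275.6 FPKM, and the other 44 had 155.8 FPKM. The 19 genes mutated in Diamond-Blackfan anaemia, an inherited failure of red cell production, included all 3 genes under 10 FPKM and had a median of 85.4 FPKM. Chromosome 19 carried 12 of the genes, with a median of 658.8 FPKM and a range of 4.72-fold.

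**Figure D1:**
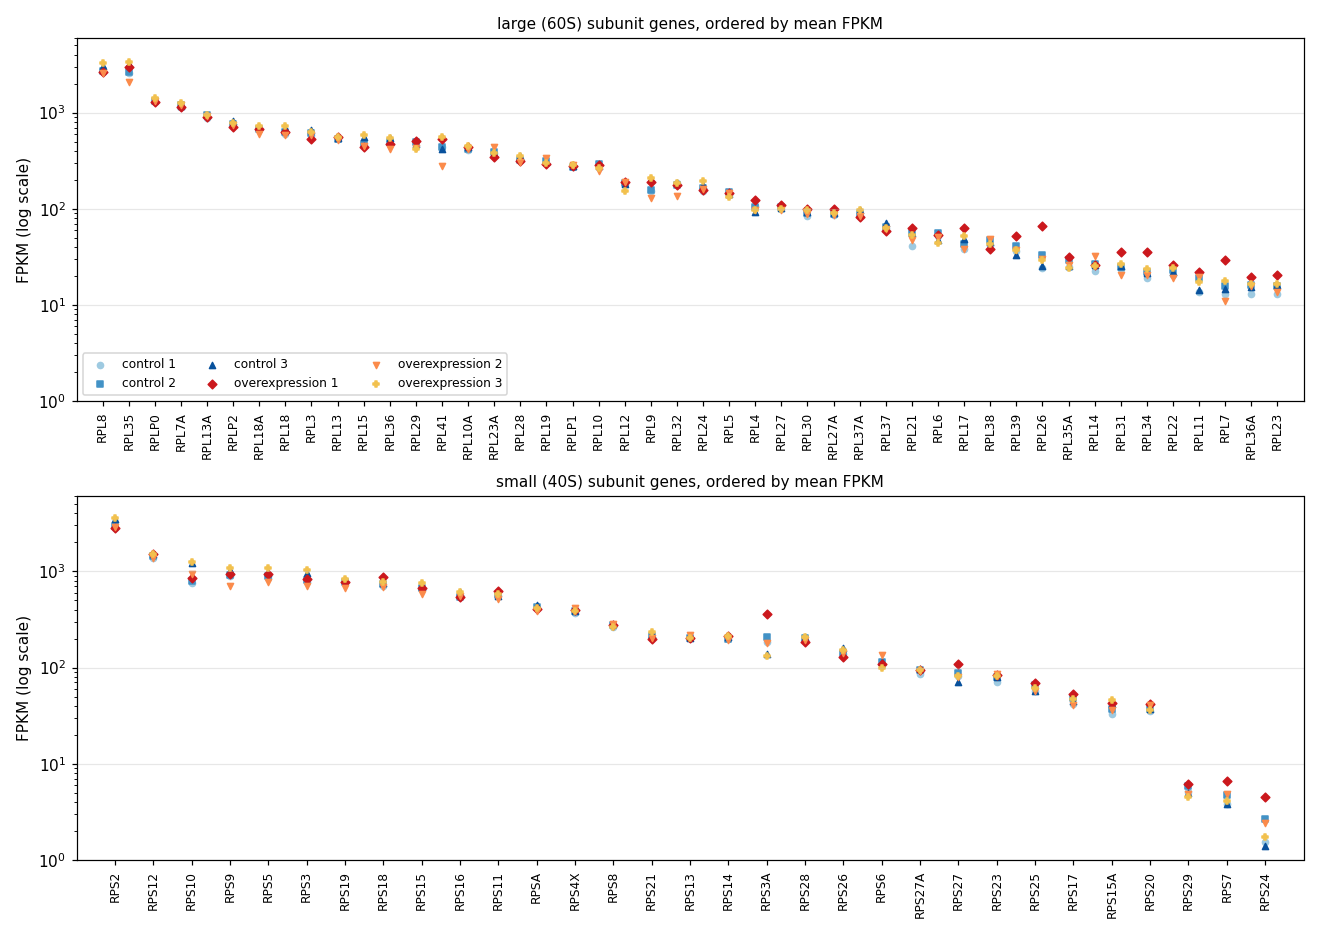
Level of each ribosomal protein gene (FPKM, log scale) in each of the 6 libraries, large subunit above and small subunit below, ordered by mean level. The libraries of a gene lie close together beside the span between genes; overexpression 1 lies above the others for genes such as RPL26, RPL7, RPS3A and RPS24.

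The spread between libraries was small beside that between genes. The ratio of the highest to the lowest library had a median of 1.26 and was under 1.5 for 59 of the 77 genes. RPLP1, a protein of the acidic stalk that recruits elongation factors, varied least, from 273 to 289 FPKM. The ratio was over 2 for 4 genes, RPS24 (3.23), RPS3A (2.74), RPL26 (2.73) and RPL7 (2.69), each highest in overexpression 1. The coefficient of variation over the 3 controls had a median of 6.09% and was largest for RPS24, 38.2%, and RPS10, 28.6%.

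The 3 genes of lowest level were low in every library. RPS24 measured 1.52, 2.69 and 1.39 FPKM in controls 1 to 3 and 4.49, 2.43 and 1.72 FPKM in the 3 overexpression libraries, in order of number. RPS7, which can bind MDM2, measured 3.81, 4.69 and 3.83 FPKM in the controls and 6.67, 4.85 and 4.14 FPKM in the overexpressing cells. RPS29, a short zinc-binding protein, measured 5.08, 5.82 and 4.92 FPKM in the controls and 6.10, 4.87 and 4.55 FPKM with overexpression. For each of the 3 genes the overexpression 1 library was the highest and the groups overlapped. The next gene upward, RPL23, was at 13.1, 15.6 and 16.2 FPKM in the controls and 20.5, 13.6 and 16.7 FPKM in the overexpressing cells, 3.06-fold above RPS29 in the mean. The deposited count per FPKM, which grows with the transcript length that the estimate used, was 3.05 times the median of the 77 genes for RPS29, the highest of all, 2.44 times for RPS24 and 1.72 times for RPS7. It was 0.198 times the median for RPS12, the lowest of all, so these genes differ in length scaling as well as in level. The table lists 13 transcripts for RPS24, 9 for RPS7 and 8 for RPS29, and for 65 of the 77 genes, these 3 included, they contain a retained-intron form. How the counts divide among transcripts was not analysed here.

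The level followed the GC content of the coding sequence. Coding GC, taken from the principal transcript of each gene in GENCODE 29, ran from 42.5% in RPL39 to 63.0% in RPS15. Across the 77 genes, Spearman's rho between mean FPKM and coding GC was 0.711, with 0.780 in the large and 0.603 in the small subunit. Over 7164 genes of any kind with a mean of at least 1 FPKM it was 0.293. These are descriptions across genes that share the same libraries, and genes are not independent replicates. In 4 bins of rising GC, the median level was 49.0 FPKM (20 genes), 63.9 FPKM (19 genes), 417 FPKM (19 genes) and 672.8 FPKM (19 genes). RPS12, at 46.7% GC and 1458 FPKM, stood above the other genes of low GC, and RPS29, at 53.6% GC and 5.22 FPKM, stood below the other genes of its bin. Coding length was less closely related to level, with rho 0.358, and was almost unrelated to GC, with rho 0.105. With the deposited counts, which are not scaled to length, rho with GC was 0.728, so the relation was as close without the length scaling of FPKM. The cause of this relation was not tested.

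**Figure D2:**
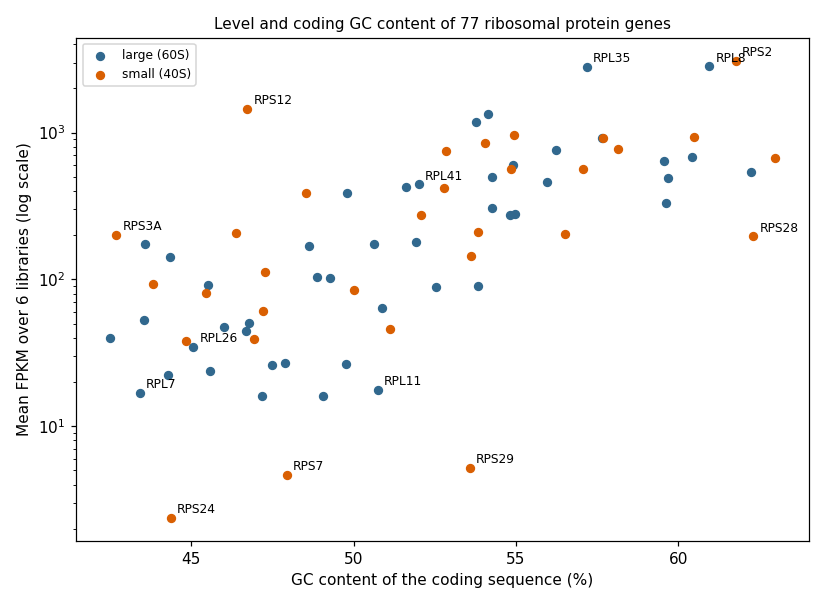
Mean level over the 6 libraries (FPKM, log scale) against the GC content of the coding sequence (%), 1 point per gene, large subunit in blue and small subunit in orange. Levels rise with GC content (Spearman's rho 0.711 over 77 genes), with RPS12 above and RPS24, RPS7 and RPS29 below the other points.

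No ribosomal protein gene passed the test between overexpressing and control cells. All 77 were among the 15951 genes tested, and the smallest adjusted p was 0.994 (edgeR's quasi-likelihood test, Benjamini-Hochberg adjustment over all genes tested). The test called 0 of all genes tested (0%), and 0 of the 77, and DESeq2 also called 0 of the 77, beside 0.0702% of 18516 genes with an adjusted p. At an unadjusted p under 0.05 it found 611 of all genes (3.83%) and again 0 of the 77, while DESeq2 found 1 of the 77, RPL26, and 3.14% of all its genes. In RNA from whole cultures, more cells with a high level and more RNA per cell cannot be told apart. The log2 fold changes, overexpression over control, ran from -0.16 in RPL37 to 0.57 in RPS24, with a median of -0.0095, against 0.023 over all genes tested. Of the 77, 35 were positive (45.5%), against 54.8% of all genes tested. With upper-quartile scaling, which put the median of all genes at -0.013, 22 of the 77 were positive (28.6%), against 47.4% of all genes. The sign of so small a median depended on the scale: it was 0.025 on log2(FPKM + 1) and 0.014 among genes with a mean of at least 5 FPKM.

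The intervals, which are not adjusted for the number of genes, differed in width between the genes. The 95% confidence interval of a member's log2 fold change reached a median of 0.30, or 1.23-fold, to either side of the estimate, against 0.53 over all genes tested. It lay within 1 log2 unit of 0 for 73 of the 77 genes and within 0.5 for 60. The estimate itself was within 0.1 of 0 for 51 genes and within 0.2 for 69.

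Without overexpression 1, again 0 of the 77 passed, while 4 of 16213 genes did (0.0247%). At an unadjusted p under 0.05 there were 468 of all genes (2.89%) and 0 of the 77. The range of the log2 fold changes narrowed to -0.20 (RPS3A) to 0.24 (RPS10), and the median was -0.011. Positive values numbered 35 of 77, against 51.6% of all genes, and the intervals of all 77 genes lay within 1 log2 unit of 0.

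**Figure D3:**
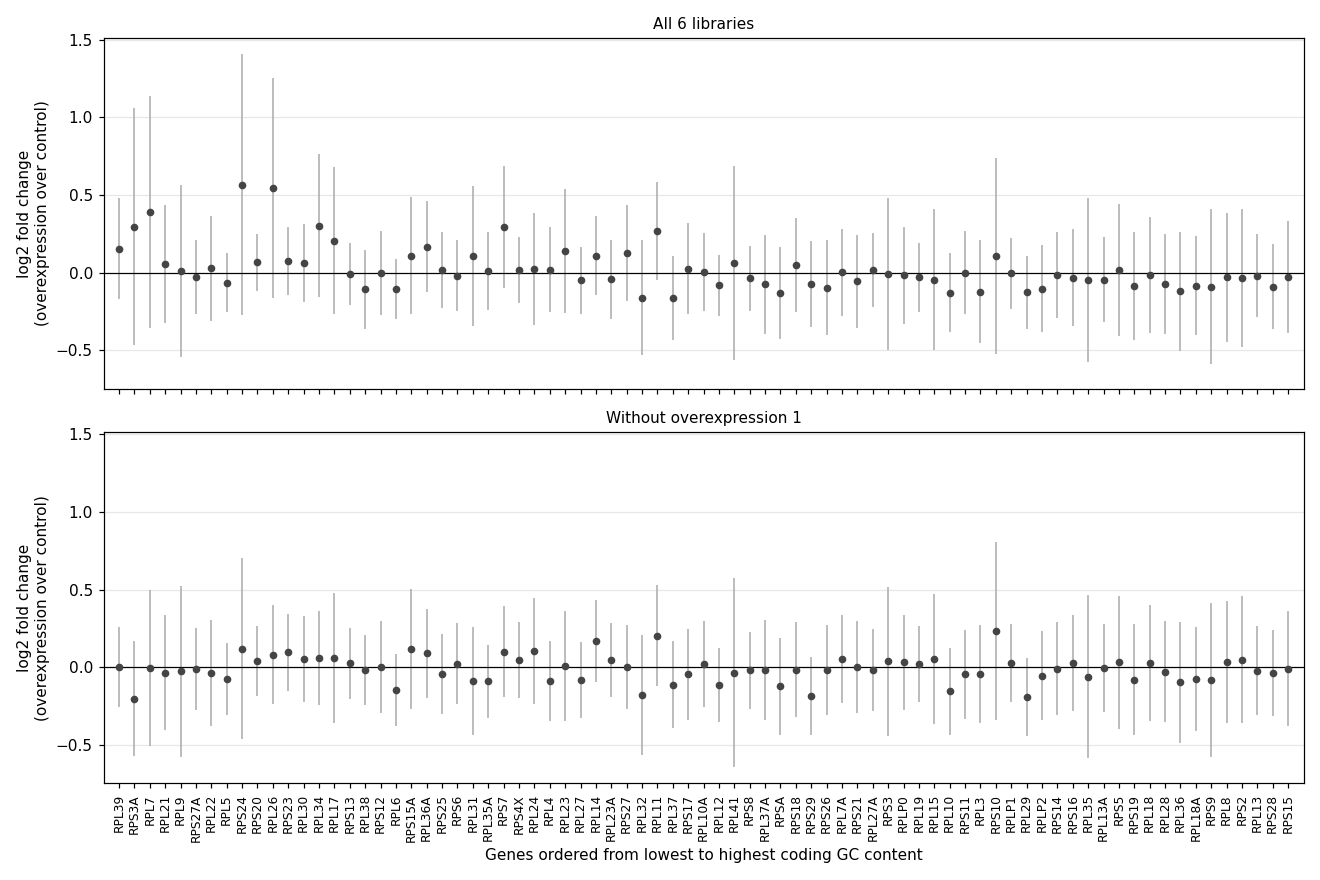
Log2 fold change, overexpression over control, with its 95% confidence interval for each of the 77 genes, ordered by coding GC content, with all 6 libraries (top) and without overexpression 1 (bottom). All 77 intervals include 0 in both panels, and the largest estimates, RPS24 and RPL26 at 0.57 and 0.55, were 0.12 and 0.080 without that library.

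Groups that did not overlap were rare among these genes. RPS23, a decoding-centre protein, was the single gene with all 3 overexpression libraries above all 3 controls, where 5.67% of all tested genes were so. It measured 70.2, 80.3 and 80.5 FPKM in the controls and 82.9, 86.7 and 80.8 FPKM in the overexpressing cells, a log2 fold change of 0.073 (SE 0.094, 95% confidence interval -0.15 to 0.29). Its highest control and its lowest overexpression library differed by less than 1 FPKM. Without overexpression 1 the log2 fold change was 0.095. No member lay wholly lower, as 2.55% of all genes did. Without overexpression 1, RPL7A, RPLP1 and RPS23 lay wholly higher (9.81% of all genes did) and RPL29, RPL10, RPL27 and RPS29 wholly lower (5.56% of all genes did). The members' shares, 3.90% and 5.19%, were no larger than the background.

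Among the proteins of the acidic stalk, which recruits the translational GTPases, the libraries of both groups lay close together. RPLP0, the base of the stalk, measured 1290.2, 1324 and 1366 FPKM in the controls and 1288, 1336 and 1417 FPKM in the overexpressing cells, a log2 fold change of -0.017 (SE 0.13, 95% confidence interval -0.33 to 0.29). RPLP1 measured 273, 274 and 280.4 FPKM in the controls and 278, 289 and 283 FPKM with overexpression, a log2 fold change of -0.0041 (SE 0.097, 95% confidence interval -0.23 to 0.22), and RPLP2 744, 759 and 823 FPKM in the controls and 711, 743 and 774 FPKM with overexpression, a log2 fold change of -0.10 (SE 0.12, 95% confidence interval -0.38 to 0.18). Without overexpression 1 the values of RPLP0, RPLP1 and RPLP2 were 0.031, 0.027 and -0.054. The groups overlapped for each of the 3 genes with all 6 libraries. RPLP0, the common reference gene, was 1.66- to 1.83-fold above RPLP2 in each library and 4.62- to 5.01-fold above RPLP1.

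RPL5 and RPL11 form a particle with 5S ribosomal RNA that can inhibit MDM2. RPL11 had the smallest p of all 77 genes. It measured 13.7, 19.2 and 14.5 FPKM in the controls and 21.9, 19.7 and 17.3 FPKM in the overexpressing cells, so that control 2 lay above overexpression 3. Its log2 fold change was 0.27 (SE 0.13, 95% confidence interval -0.045 to 0.59) with an unadjusted p of 0.0829 by edgeR, and 0.20 without overexpression 1 with a p of 0.192. RPL5 measured 138, 149 and 143 FPKM in the controls and 148, 146 and 132 FPKM with overexpression, and its log2 fold change was -0.064 (SE 0.080, 95% confidence interval -0.25 to 0.12), and -0.076 without overexpression 1. The mean over 6 libraries was 142.5 FPKM for RPL5 and 17.7 FPKM for RPL11, although the proteins act as a pair.

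In the small subunit, the values of proteins with roles outside the ribosome overlapped between the groups. RPS6, the substrate of the S6 kinases, measured 107, 116 and 114 FPKM in the controls and 110, 133 and 99.6 FPKM in the overexpressing cells. Overexpression 2 was its highest and overexpression 3 its lowest library, so the controls lay within the range of the overexpressing cells. RPS3, at the mRNA entry, measured 779, 817 and 952 FPKM in the controls and 831, 712 and 1042 FPKM with overexpression, with the same relation of the groups. RPSA, also known as the laminin receptor, measured 413, 428 and 449.5 FPKM in the controls and 410.3, 383 and 419 FPKM with overexpression, a log2 fold change of -0.13 (SE 0.13, 95% confidence interval -0.43 to 0.17). RPS27A, made as a fusion with ubiquitin, measured 85.9, 95.3 and 97.2 FPKM in the controls and 93.8, 91.6 and 95.3 FPKM with overexpression. RPS4X, specified on the X chromosome, measured 372, 391 and 382 FPKM in the controls and 393, 419 and 383 FPKM with overexpression, a log2 fold change of 0.018 (SE 0.091, 95% confidence interval -0.19 to 0.23). The log2 fold changes of RPS6, RPS3 and RPS27A were -0.019 (SE 0.098, 95% confidence interval -0.25 to 0.21), -0.0095 (SE 0.21, 95% confidence interval -0.50 to 0.48) and -0.029 (SE 0.10, 95% confidence interval -0.27 to 0.21). Without overexpression 1, RPS6, RPS3, RPSA, RPS27A and RPS4X were at 0.023, 0.037, -0.12, -0.012 and 0.044.

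The estimates with the smallest p among negative values were those of RPL37, RPL6, RPL29, RPL10 and RPSA. RPL37, which has been found to bind MDM2, measured 63.4, 64.6 and 71.96 FPKM in the controls and 58.2, 62.1 and 63.4 FPKM in the overexpressing cells. Its log2 fold change was -0.16 (SE 0.12, 95% confidence interval -0.43 to 0.11), and overexpression 3 overlapped control 1 at 63.4 FPKM. RPL10, which joins late in the making of the large subunit, measured 284, 291 and 277 FPKM in the controls and 285, 249 and 268 FPKM with overexpression, a log2 fold change of -0.13 (SE 0.11, 95% confidence interval -0.38 to 0.13). RPL29, on the surface of the large subunit, measured 454, 498 and 476 FPKM in the controls and 504, 433 and 415 FPKM with overexpression, a log2 fold change of -0.12 (SE 0.10, 95% confidence interval -0.36 to 0.11) that became -0.19 without overexpression 1, the highest of the 6 libraries for this gene. RPL6 measured 51.6, 56.1 and 47.5 FPKM in the controls and 53.9, 50.7 and 44.4 FPKM with overexpression, a log2 fold change of -0.10 (SE 0.083, 95% confidence interval -0.30 to 0.091). For each of these 5 genes the highest overexpression library lay above the lowest control. Without overexpression 1, RPL37, RPL6 and RPL10 were at -0.11, -0.15 and -0.16.

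RPL41 and RPL13A show the range of agreement between libraries. RPL41, the shortest of these proteins with 25 residues, measured 443, 434 and 415 FPKM in the controls but 538, 281 and 556 FPKM in the overexpressing cells. Overexpression 2 was thus the lowest and overexpression 3 the highest of the 6, and the log2 fold change was 0.065 (SE 0.27, 95% confidence interval -0.56 to 0.69). RPL13A, which in human monocytes also takes part in silencing inflammatory mRNAs, measured 885, 939 and 946 FPKM in the controls and 892, 926 and 943 FPKM with overexpression, a log2 fold change of -0.045 (SE 0.12, 95% confidence interval -0.32 to 0.23). Without overexpression 1, RPL41 was at -0.037 and RPL13A at -0.0054.

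Overexpression 1 differed from the other libraries in the genes of low coding GC. It was the highest library for 29 of the 77 genes (37.7%), as for 30.9% of all tested genes, and the lowest for 15 (19.5%), as for 13.6% of all tested genes. Its log2(FPKM + 1) exceeded the mean of the other 5 libraries by over 0.5 for 8 of the 77 (10.4%), as for 8.02% of all tested genes. Among the 8028 tested genes with a mean of at least 1 FPKM, which all members reach, the share was 10.1%, near that of the members. These 8 were RPL26, RPS3A, RPL7, RPS24, RPL34, RPS7, RPL31 and RPL17, all with 42.7% to 47.9% coding GC, and 6 of them in the lowest of the 4 GC bins.

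RPL26, at the exit of the tunnel and known to bind the mRNA of p53, measured 24.2, 33.5 and 25.2 FPKM in the controls and 66.2, 30.1 and 29.2 FPKM in the overexpressing cells. Overexpression 1 was 2.33-fold above the mean of the others, and overexpression 2 and 3 lay between control 3 and control 2. Its log2 fold change was 0.55 (SE 0.30, 95% confidence interval -0.16 to 1.26), and 0.080 without overexpression 1. RPS3A, a small-subunit protein near the mRNA exit, measured 185, 206 and 139 FPKM in the controls and 363, 182 and 132 FPKM with overexpression. Its log2 fold change was 0.30 (SE 0.33, 95% confidence interval -0.47 to 1.06), and it turned to -0.20 without overexpression 1. RPL7 measured 13.01, 15.7 and 14.6 FPKM in the controls and 29.7, 11.01 and 17.9 FPKM with overexpression, with a log2 fold change of 0.39 (SE 0.32, 95% confidence interval -0.36 to 1.14) that became -0.0056. In RPL7 too, overexpression 1 was far above the other 5 libraries, which overlapped. RPS24 had a log2 fold change of 0.57 (SE 0.36, 95% confidence interval -0.27 to 1.41), which became 0.12 without overexpression 1. RPL34 measured 19.1, 22.1 and 21.4 FPKM in the controls and 35.7, 20.4 and 23.6 FPKM with overexpression, and its log2 fold change of 0.30 (SE 0.20, 95% confidence interval -0.16 to 0.76) became 0.059. Overexpression 1 was the single high library of RPL34 as well.

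The relation of fold change to GC content was weaker without overexpression 1, the only library left out for this value. Over the 77 genes, Spearman's rho between the log2 fold change and coding GC was -0.550 with all 6 libraries and -0.153 without overexpression 1. In the 4 bins of rising GC the median log2 fold change was 0.066, 0.021, -0.036 and -0.045, and 14 of 20, 14 of 19, 6 of 19 and 1 of 19 genes were positive. Without overexpression 1 the medians were 0.00047, 0.0059, -0.019 and -0.022, and 11, 11, 7 and 6 genes were positive. Within single libraries, rho between a member's deviation from the mean of the other 5 and its coding GC was 0.424, -0.254 and 0.505 in controls 1 to 3 and -0.551, -0.185 and 0.407 in overexpression libraries 1 to 3. Over 7164 genes of any kind the same values were 0.274, -0.127, 0.381, -0.416, -0.0905 and 0.394, with the same sign in each library. Fibroblast markers were higher in overexpression 1, and whether RNA of other cells was present there was not tested. The part that GC content or such RNA may have in these values was not tested either.

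**Figure D4:**
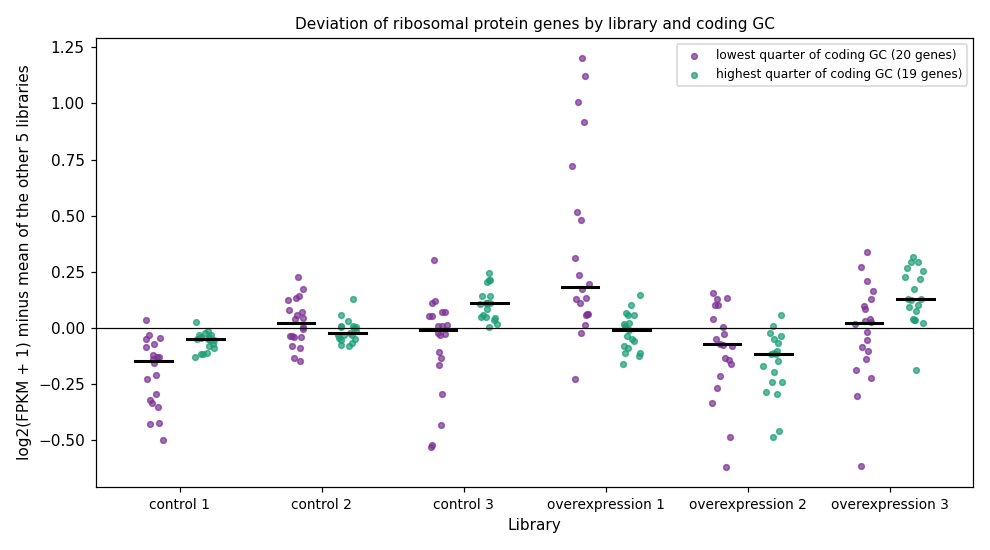
Deviation of each gene in a library from the mean of the other 5 libraries (log2(FPKM + 1)) for the 20 genes of lowest and the 19 genes of highest coding GC content; black lines are medians. The low-GC genes had a median of 0.18 in overexpression 1 and -0.15 in control 1, and the high-GC genes one of 0.13 in overexpression 3 and -0.12 in overexpression 2.

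The other libraries of a group also differed among themselves. The median deviation of the 77 genes was -0.084, 0.0075 and 0.032 in controls 1 to 3 and 0.058, -0.083 and 0.046 in overexpression libraries 1 to 3. Control 1 was the lowest library for 24 genes (31.2%) and the highest for 0, where the shares of all tested genes were 19.3% and 10.8%. Overexpression 2 was the lowest for 25 genes (32.5%) and overexpression 3 the highest for 25 (32.5%), where the shares of all tested genes were 9.62% and 13.5%. Each group thus held libraries with low values for most members and libraries with high ones. Leaving out overexpression 2 put 57 of the 77 log2 fold changes above 0 (74%), against 55.8% of all genes, and leaving out overexpression 3 put 20 above 0 (26%), against 53.3%. Without overexpression 2, 7 members had an unadjusted p under 0.05 (RPL7, RPL17, RPL23, RPL26, RPL31, RPL34 and RPL41), all with positive values of 0.31 to 0.77; these were 9.09% of the 77, against 6.75% of all genes. Without overexpression 3, 4 had one (RPL32, RPL36, RPL37 and RPS28), all with negative values of -0.20 to -0.32; these were 5.19% of the 77, against 11.3% of all genes. The smallest adjusted p among them was 0.434 by edgeR.

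The counts of RPS10 and of an overlapping readthrough gene varied in opposite directions between libraries. RPS10 itself measured 754, 788 and 1228 FPKM in controls 1 to 3 and 852, 934 and 1264 FPKM in overexpression libraries 1 to 3. RPS10-NUDT3, a readthrough gene on the same strand that spans the RPS10 locus, had 53674, 60342 and 13729 deposited counts in the controls and 63070, 8922 and 18563 in the overexpressing cells. The 3 libraries with most readthrough counts (control 1, control 2 and overexpression 1) were the 3 with least RPS10. Summed, the rows had 2891, 2981 and 3296 CPM in the controls and 2992, 2509 and 3433 in the overexpressing cells, so the sum spanned 1.37-fold and the CPM of RPS10 alone 1.67-fold. The level of RPS10 taken alone, and its log2 fold change of 0.11 (SE 0.27, 95% confidence interval -0.52 to 0.74), which was 0.24 without overexpression 1, are uncertain for this reason.

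Other genes lie over or resemble members. Rows of overlapping genes held at least 5% of the counts of 8 members, and of these overlaps RPS10 was the single one on the same strand. Since the strandedness of the libraries is not given in the sources used here, reads of RPL36A and GLA, of RPL28 and UBE2S and of RPS29 and LRR1 cannot be told apart where the genes overlap. Rows named as pseudogenes numbered 386 and held 0.232% to 0.274% of all counts per library. For 8 members these rows held at least 10% as many counts as the gene itself, with 45.6% for RPL9, 36.0% for RPL7, 31.4% for RPL21, 24.7% for RPL36A and 22.5% for RPS28. Levels of these genes are uncertain to that degree. RPL21 ranged from 41.0 to 56.6 FPKM in the controls and from 47.9 to 63.1 FPKM with overexpression, and RPL36A from 13.1 to 16.3 and from 15.8 to 19.7 FPKM, so the groups overlapped for both.

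Summed over all 77 genes, the share of the libraries taken by ribosomal protein mRNAs differed between the groups by less than the spread of the replicates. They held 8.14%, 8.53% and 9.07% of all FPKM in controls 1 to 3 and 8.72%, 8.38% and 9.20% in overexpression libraries 1 to 3. The means were 8.58% ± 0.467 (SD, n = 3) and 8.77% ± 0.410 (SD, n = 3), and 8.79% for overexpression 2 and 3 alone. As a share of deposited counts the means were 10.2% ± 0.625 and 10.1% ± 0.877 (SD, n = 3 each).

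The balance of the subunits overlapped between the groups as well. The ratio of the summed FPKM of large- to small-subunit genes was 1.29, 1.28 and 1.24 in controls 1 to 3 and 1.25, 1.25 and 1.23 in overexpression libraries 1 to 3. The means were 1.27 ± 0.026 and 1.25 ± 0.010 (SD, n = 3 each), with overlapping groups. Without control 3 the groups did not overlap and the difference in means was -0.038, against -0.023 with all 6 libraries. The large subunit has 46 genes here and the small one 31, so equal mean levels would give a ratio above 1. The spread of log2 FPKM over the 77 genes was 2.29 ± 0.066 (SD over libraries) in the controls and 2.22 ± 0.115 in the overexpressing cells, lowest in overexpression 1 at 2.10.

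**Figure D5:**
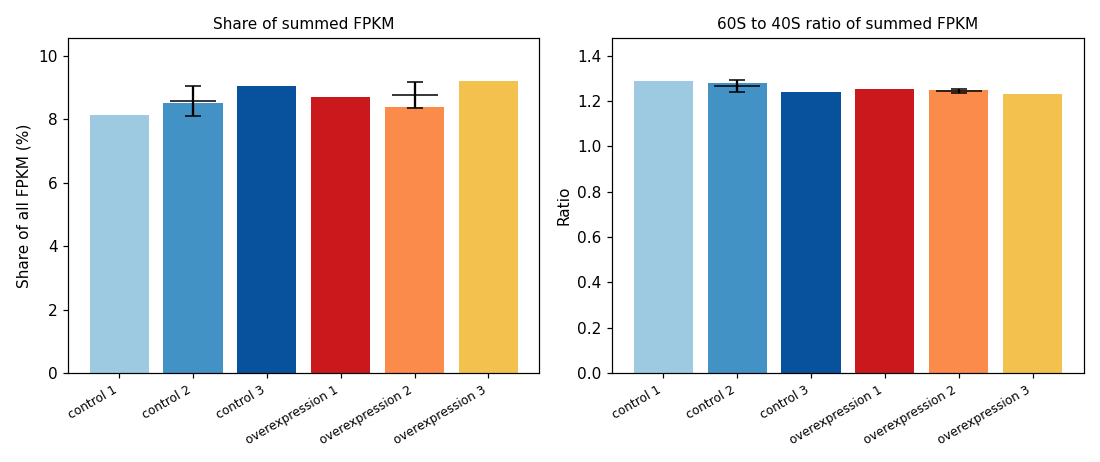
Share of all FPKM held by the 77 genes (left, %) and ratio of summed FPKM of large- to small-subunit genes (right) in each library; black marks at the middle bar of each group give the group mean and SD of 3 libraries. Over the 6 libraries the shares run from 8.14% to 9.20% and the ratios from 1.23 to 1.29. The groups overlap in both, in the ratios through control 3 alone.

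Some members varied together across the libraries, after each group's mean was taken away. The closest pairs were RPL10A with RPS15A (r = 0.999), RPS21 with RPL24, RPS14 with RPL9, RPL27 with RPL34 and RPS9 with RPS19 (r = 0.997 or more), over 6 libraries. These are the highest of 2926 pairs, whose median r was 0.267, and they share libraries and depth. Of all pairs, 61.7% had a positive r.

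FAU and RACK1, which fall outside the naming rule, had log2 fold changes within the range of the 77. FAU, a small-subunit protein made as a fusion with a ubiquitin-like protein, had a mean of 502.4 FPKM, and RACK1, the scaffold on the head of the small subunit, 258.1 FPKM. Their log2 fold changes were -0.024 and -0.069 (SE 0.13 and 0.097), and neither passed the test. Without overexpression 1 they were -0.025 and -0.064. Of the paralogs, 6 were tested, none passed, and 5 had a positive log2 fold change, with a median of 0.091 (4 positive and 0.053 without overexpression 1). RPL36AL was at 320.4 FPKM, against 16.1 FPKM for RPL36A, whereas RPS27L was at 0.633 FPKM and RPL3L at 0.0527 FPKM, too low to be tested.

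Other mRNAs with a TOP tract, mostly of translation factors, gave no call either. Of 21 tested, 12 had a positive log2 fold change and the median was 0.011 (11 positive and 0.0057 without overexpression 1). BTF3, which forms the nascent chain complex with NACA, was the single one with an unadjusted p under 0.05 by edgeR. Of all genes tested, 3.83% had such a p. BTF3 measured 42.0, 44.2 and 41.1 FPKM in controls 1 to 3 and 49.8, 53.5 and 47.1 FPKM in overexpression libraries 1 to 3. Its overexpression libraries thus all lay above the controls, as for 5.67% of all tested genes. Its log2 fold change was 0.20 (SE 0.075), with an unadjusted p of 0.0327 and an adjusted p of 0.994 by edgeR, and it was 0.22 without overexpression 1. EIF4A2, an RNA helicase of initiation, had a log2 fold change of 0.23 (SE 0.12), which became 0.16 without overexpression 1, and NAP1L1, a histone chaperone, 0.45 (SE 0.29), which became 0.0057.

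Regulators, transcription factors and chaperones of these genes had no member past the test. Of 11 regulators of TOP mRNA translation, 8 had a positive log2 fold change and the median was 0.056; without overexpression 1, 5 were positive and the median was -0.0094. RPS6KB1, an S6 kinase, was the furthest, at 2.12 FPKM in overexpression 1 against 0.259 to 0.315 FPKM in the other 5 libraries. Its log2 fold change of 1.66 (SE 0.73) became 0.15 without that library, and LARP1 was at 0.0081 (SE 0.16), and at -0.017 without it. Of 9 transcription factors, 5 were positive with a median of 0.030; without overexpression 1, 3 were positive and the median was -0.078. GABPA had a log2 fold change of 1.14 (SE 0.64), and of -0.078 without overexpression 1, and MYC was at 0.030 (SE 0.083) and 0.056. Of 13 chaperones and quality control factors, 9 were positive with a median of 0.071, and without overexpression 1 again 9 with a median of 0.041. GRWD1, which binds RPL3 in assembly, was at 0.055 (SE 0.17), and at 0.16 without overexpression 1.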

How the data were processed

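Oligo(dT)-selected RNA of 3 overexpression and 3 control libraries was sequenced. Per the submitters' processing notes, cutadapt 1.9, HISAT2 2.0.4, StringTie 1.3.4d and edgeR were used with the build hg38; the annotation release is not given in the sources used here. The authors deposited FPKM values and expected counts per gene; the deposited counts are whole numbers that pile up at multiples of 4 among low values. The test was edgeR's quasi-likelihood test (version 4.0.16, R 4.3.3; TMM scaling, filterByExpr with a minimum count of 10, group as the only term, 2-sided, Benjamini-Hochberg adjustment over 15951 genes, threshold 0.05). The common dispersion was 0.0943. The same steps were also run on simulated counts, with the same dispersion for all genes, large set changes and no library that stood apart. That run cannot show how the steps behave with small changes or with a library such as overexpression 1. Alternatives were RLE and upper-quartile scaling, other filters, DESeq2 1.42.0, limma 3.58.1 on log2(FPKM + 1) and log2(FPKM + 0.1), a replicate block, each library left out, and rows with the same symbol summed. A GC offset per library was chosen after seeing the data. Estimates near 0 can differ in sign from the difference in mean FPKM, which is scaled otherwise than by TMM.

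The members, gene lists and rule for named genes were chosen with earlier results of these data known. Genes were named for being among the 5 with the smallest p in each direction, the 5 highest or lowest levels, the 5 largest control SDs or the 5 largest differences of overexpression 1 from overexpression 2 and 3, or for their role. From other lists, the rule allowed up to 3 genes with the smallest p, and not every gene it allowed was named. LARP1, MYC and GRWD1 were among those named outside it. RPL7A, RPS23, RPL27, RPL31, RPL17, RPL32, RPL36, RPL28, RPL9, RPS28 and other genes outside that rule were chosen after their values were seen. Coding GC came from the APPRIS principal transcript in GENCODE 29, and was available for 79.8% of tested genes and for all 77 members. Start sites came from RefSeq (GRCh38.p14).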

Additional observations from a re-analysis of the deposited data

How the results depend on the processing

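No ribosomal protein gene passed the adjusted threshold under any of the 16 alternatives. Over all genes, DESeq2 called 13, and leaving out 1 library gave 0 to 4. At an unadjusted p under 0.05, DESeq2 found 1 member, and leaving out 1 library gave 0 to 7. Positive log2 fold changes numbered 22 with upper-quartile scaling and 20 to 57 of 77 with 1 library left out, where the median ran from -0.087 to 0.074. The difference in the share of FPKM, 0.185 percentage points, ran from -0.049 to 0.430 under the alternatives, below the control SD of 0.467. That in the 60S to 40S ratio, -0.023, ran from -0.014 to -0.038, beyond the control SD of 0.026 without control 3 (-0.038) and without overexpression 1 (-0.027); the ratio of medians differed by -0.034.

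Of 350 log2 fold changes of 22 named members under the alternatives, 310 kept their sign, and 13 of the 22 genes kept it throughout. The 40 of opposite sign belonged to 9 genes with estimates near 0 or raised in overexpression 1; the cause was not tested. The GC offset could use 79.8% of tested genes, those with a coding sequence, so as a check over all genes it is void; all 77 members had a value. With it, RPLP0 was at 0.0043, RPLP1 at 0.022, RPS3 at 0.014 and RPS4X at -0.021; RPS3A went from 0.296 to 0.079, RPL7 from 0.391 to 0.232, RPL5 from -0.064 to -0.170 and RPS27A from -0.029 to -0.139, with their sign kept. With limma at either pseudocount, RPLP0 was at 0.021, RPLP1 at 0.038, RPS6 at 0.022, RPS27A at 0.014 and RPS3 at 0.0086. With a mean of at least 5 FPKM, which leaves 75 members, RPLP0 was at 0.009, RPLP1 at 0.024, RPS6 at 0.015 and RPS3 at 0.011. RPLP1 was at 0.00077 without a filter, RPL41 at -0.015 with the replicate block, and RPS4X at -0.017 with upper-quartile scaling. With 1 library left out, RPL41 ran from -0.171 to 0.346, RPL7 from -0.0056 to 0.702, RPLP0 from -0.121 to 0.031, RPLP1 from -0.066 to 0.029, RPS27A from -0.106 to 0.028, RPS3 from -0.244 to 0.146, RPS3A from -0.202 to 0.531, RPS4X from -0.015 to 0.044 and RPS6 from -0.097 to 0.023.

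Deviations of same-numbered libraries from their group means correlated at -0.0316, 0.0354 and 0.0746. Means of 3 libraries that include overexpression 1 enter these values, so they cannot decide whether the libraries were handled in pairs. With the replicate block, 0 members passed, 30 were positive and their median was -0.019. With 3 libraries a group, the intervals of the members reached a median of 1.23-fold to either side. The reach differed between genes, so this median is not a limit of detection for each of them. Small changes could not be told from 0 for many genes, and no outlier test was run on groups of 3.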
